A study of Homo sapiens with 4 samples.

Results

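The azurophil granule genes were followed in naive and arsenic trioxide (ATO) resistant cells of NB4, an established human line of acute promyelocytic leukemia (APL). They are the 10 genes MPO, ELANE, PRTN3, AZU1, CTSG, LYZ, BPI, RNASE2, RNASE3 and DEFA4, and every probe that carried one of these names on the array was taken, which gave 12 probes and 10 of the 30811 names listed there. Naive NB4 was set against a resistant line derived from it in-house, a clone called NB4-VM-AsR1 in the labels and NB4-EV-AsR1 in the methods, which are taken here for the same clone although neither source says so. Both lines were grown in RPMI with FBS and differ by label only in their resistance to ATO, and the resistant cells were kept free of ATO for a week before the RNA was made. Each line gave RNA from 2 independent flasks, hybridized as Cy3-labelled RNA to 4 Agilent whole human genome arrays at 1 flask per array. One resistant clone stands for ATO resistance here, so clone and resistance cannot be told apart.

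Azurophil or primary granules are the first granules of the neutrophil lineage and are filled at the promyelocyte stage, the stage at which APL cells are held. Their contents kill and digest ingested microbes. MPO, a peroxidase, makes hypochlorous acid, the serine proteases ELANE, PRTN3 and CTSG cut proteins, and AZU1 is a sister of these proteases without enzyme activity that binds bacteria. LYZ cuts the bacterial cell wall, BPI binds bacterial lipopolysaccharide, DEFA4 is a defensin peptide, and RNASE2 and RNASE3 are ribonucleases that eosinophil granules also hold. In the RefSeq gene order of GRCh38.p14, AZU1, PRTN3 and ELANE are direct neighbours on chromosome 19.

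The probes of AZU1, ELANE and PRTN3 are shown first, since limma called AZU1 and ELANE, and PRTN3, which was not called, lies between them. ELANE was called from a probe that naive 2 did not read well above background. Capitals mark the longest run that the AZU1 and ELANE probes share, of 12 bases. In their best ungapped alignment 37 of 59 bases were identical, while the PRTN3 probe shared no run longer than 7 bases with ELANE and 5 with AZU1.
AZU1 probe: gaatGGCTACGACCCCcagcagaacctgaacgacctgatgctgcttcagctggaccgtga
ELANE probe: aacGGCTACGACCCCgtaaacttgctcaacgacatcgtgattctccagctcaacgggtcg
PRTN3 probe: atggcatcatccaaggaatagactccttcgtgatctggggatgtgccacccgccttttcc

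RNASE2 is read by a pair of probes, shown because they differ in what else they may bind. The first lies at chr14:21424175-21424234 (hg19, plus strand) and shares no listed transcript with the RNASE3 probe. The second is placed at chr14:21388102-21388161 (hg19, plus strand) and shares 2 listed transcripts with the RNASE3 probe. The value of either of these, the second RNASE2 probe or the RNASE3 probe, may thus hold RNA of more than 1 gene.
RNASE2, first probe: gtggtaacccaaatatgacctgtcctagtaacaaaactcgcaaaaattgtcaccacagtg
RNASE2, second probe: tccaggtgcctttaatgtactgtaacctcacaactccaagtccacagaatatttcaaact

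Promoter sequence was at hand for 5 of the 10 genes, as the 250 bases before the RefSeq start in GRCh38.p14. Those of AZU1 (chr19:827587-827836, plus strand) and PRTN3 (chr19:840749-840998, plus strand) are printed because these neighbours were both higher in each resistant flask than in either naive flask. Those of RNASE2 (chr14:20955237-20955486, plus strand) and RNASE3 (chr14:20891135-20891384, plus strand) are printed because these paralogs had parallel values across the flasks. Capitals mark matches, on either strand, to core motifs of 3 myeloid factors, AGGAAG for PU.1, TTNCNNAA for C/EBP and AACNG for MYB.
AZU1 promoter: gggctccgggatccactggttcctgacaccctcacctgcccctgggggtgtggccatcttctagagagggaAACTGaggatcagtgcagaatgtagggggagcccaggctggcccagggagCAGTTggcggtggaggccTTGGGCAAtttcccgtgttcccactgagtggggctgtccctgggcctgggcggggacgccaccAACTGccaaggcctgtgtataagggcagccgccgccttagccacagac
PRTN3 promoter: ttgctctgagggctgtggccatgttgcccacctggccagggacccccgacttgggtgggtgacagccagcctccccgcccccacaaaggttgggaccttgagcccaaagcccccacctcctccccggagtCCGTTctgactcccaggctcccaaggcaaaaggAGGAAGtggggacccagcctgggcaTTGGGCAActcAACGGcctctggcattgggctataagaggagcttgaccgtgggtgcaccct
RNASE2 promoter: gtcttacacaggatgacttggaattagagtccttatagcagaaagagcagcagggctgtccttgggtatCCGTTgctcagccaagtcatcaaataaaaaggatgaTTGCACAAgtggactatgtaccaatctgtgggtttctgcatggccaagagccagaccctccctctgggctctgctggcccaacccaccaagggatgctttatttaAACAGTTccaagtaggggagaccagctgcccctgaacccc
RNASE3 promoter: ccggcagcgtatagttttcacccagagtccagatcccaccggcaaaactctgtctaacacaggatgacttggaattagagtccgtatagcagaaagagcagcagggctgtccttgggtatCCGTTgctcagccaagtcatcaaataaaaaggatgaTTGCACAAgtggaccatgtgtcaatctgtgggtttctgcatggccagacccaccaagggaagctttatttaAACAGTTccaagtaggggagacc

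The C/EBP letters were found in 4 of the 5 promoters, against 33.2% of 35116 promoters of this length, and AZU1 and PRTN3 hold the same 8 letters, TTGGGCAA, at this match. The PU.1 letters were in 2 of 5 (28.7% of all promoters), and the short MYB letters in 5 of 5 (70.6% of all promoters), where matches on opposite strands overlap in RNASE2 and RNASE3. The promoters of RNASE2 and RNASE3 share a run of 86 bases, and 158 of 199 aligned bases (79.4%) were identical. A match of letters is a description and not a binding site.

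The level of a probe is given as log2 of its background-subtracted signal minus the 75th percentile of the array, so that 0 is the brightness of the probe at that percentile. Levels are compared between arrays and not between probes, and in these bulk samples fewer cells of a type and less RNA per cell cannot be told apart. Each array read 41000 probes, of which 27922 to 28244 were well above background and 457 to 565 were saturated, that is at the upper end of the scanner's range. The limma test took each probe that both arrays of a line, or of both lines, read well above background. A call needed a p below 0.05 after Benjamini-Hochberg adjustment together with a 2-fold change. Of 28221 probes tested, 5.27% were called, 2.3% as higher and 2.97% as lower in the resistant line. From the 1487 probes so called, the number went to 3733 without naive 1, 4536 without naive 2, 743 without resistant 1 and 728 without resistant 2. Over the tested probes the log2 difference of the naive flasks had an SD of 0.71, and that of the resistant flasks an SD of 0.37. All arrays lay on 1 slide, the naive ones first, so that position and line cannot be told apart.

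All 10 genes had at least 1 tested probe, and 11 of the 12 probes were tested. By limma 2 of the 10 genes were called, ELANE and AZU1, both higher in resistant cells, and none was called lower. An unadjusted p below 0.05 was reached by 5 of the 10 genes, and by 5383 of all 28221 tested probes. The calls became 7 without naive 1, 4 without naive 2 and 0 without either resistant flask (5 and 4 genes at an unadjusted p below 0.05). Among the 8 genes read well above background on all 4 arrays, which leaves out ELANE and BPI, none was called by limma. An unadjusted p below 0.05 was reached by 3 of these 8 genes, and by 4563 of the 25962 probes in that fit. Both resistant flasks lay above both naive flasks for 4 genes (ELANE, PRTN3, AZU1 and CTSG), where 24.5% of all tested probes did so. Both lay below for 2 genes (BPI and DEFA4), where 28% of tested probes did so, and MPO, LYZ, RNASE2 and RNASE3 overlapped between the lines. ELANE entered the test only through the resistant line and BPI only through the naive line, where each was higher. Their lack of overlap is thus in part set by the filter. The median log2 change over the 10 genes was 0.24, and 0.27 without MPO, which was saturated throughout, against −0.020 over all tested probes. It was 1.00 without naive 1 and −0.11 without naive 2. The SD of the changes was 1.57 over the 10 genes and 0.95 over all tested probes. The SD over the 10 genes includes ELANE (2.49) and BPI (−2.43), whose sizes rest on dim readings. After the normexp background correction these changes were 0.78 and −0.023.

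**Figure D1:**
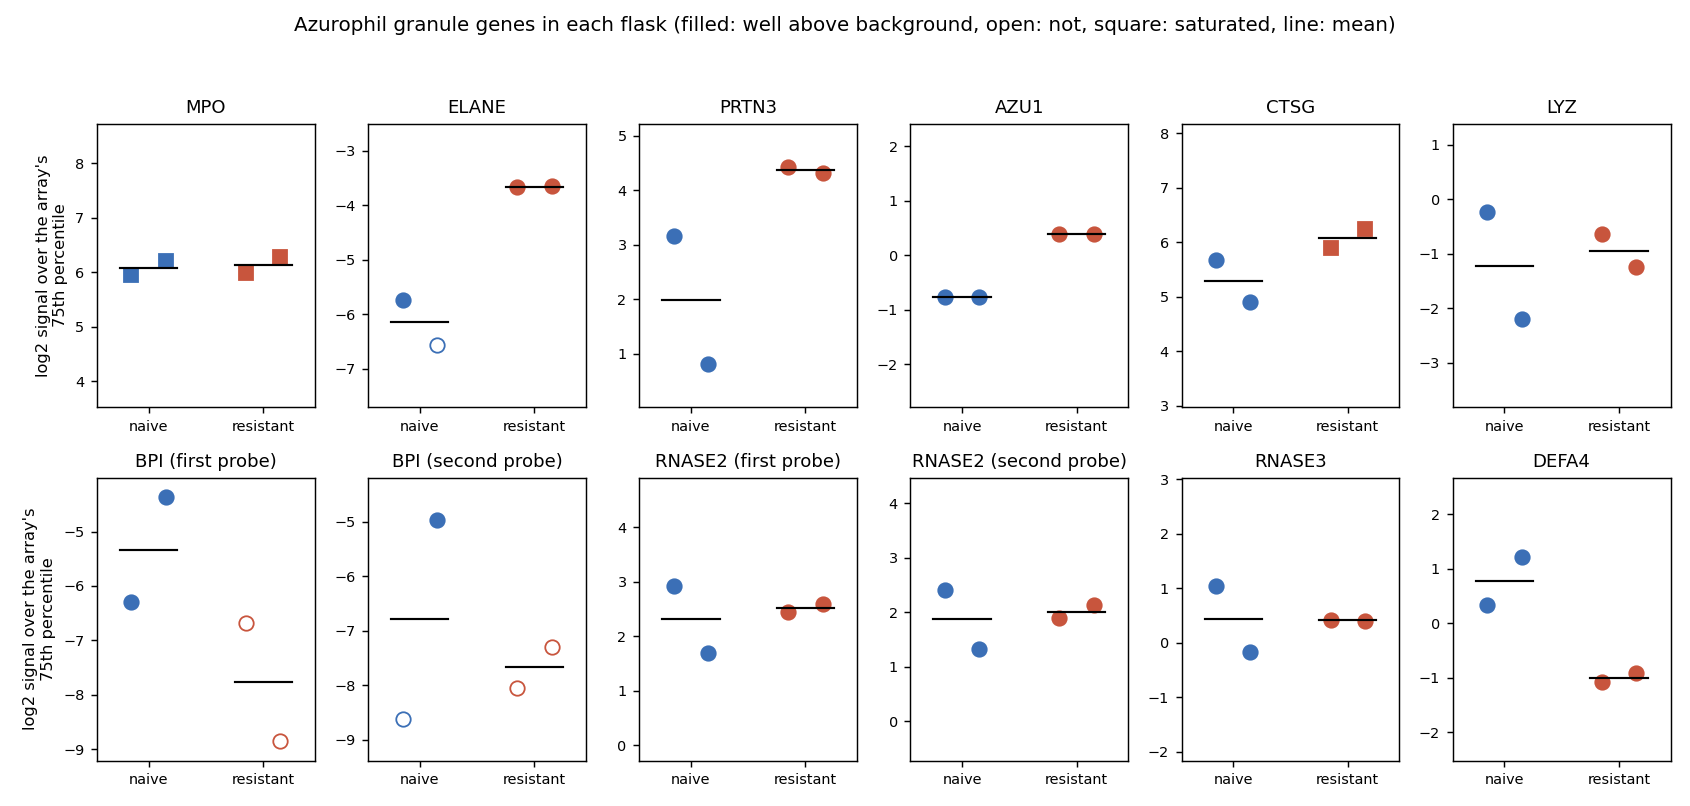
Each panel plots 1 probe, with the flasks of the naive line in blue and of the resistant line in red, and the log2 signal over the array's 75th percentile on the y axis; all panels span the same range of log2 units, horizontal lines are means of 2 flasks, open symbols are not well above background and squares are saturated. ELANE, PRTN3, AZU1 and CTSG lie higher in both resistant flasks and DEFA4 lower, while the naive flasks of PRTN3 and LYZ lie far apart.

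MPO, the peroxidase that defines the granule, was at the ceiling of the scanner in every flask. Its probe (chr17:56347868-56347927, hg19, minus strand) read 66932 and 65945 in the naive flasks and 66166 and 65695 in the resistant flasks, and all of these spots were saturated. No fold change can be given, and a difference between the lines in MPO was not measurable with this probe.

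ELANE encodes neutrophil elastase. Its level was −5.74 and −6.56 in the naive flasks and −3.66 and −3.66 in the resistant flasks, with signals of 20.2, 9.51, 82.8 and 66.7. The probe was dim everywhere, and in naive 2 it was not well above background, so that 1 of the 2 naive arrays measured it. The fitted change was 2.49 on the log2 scale (standard error 0.33, adjusted p = 0.0169 by limma, higher in both resistant flasks), from −6.15 ± 0.58 to −3.66 ± 0.0014 (SD, n = 2 each), and its size rests on that dim reading. ELANE entered the test through the resistant line, the only line in which both arrays read it well above background. Against naive 1, which did measure ELANE, the resistant mean was higher by 2.08. The call was kept without a filter on dim probes (adjusted p = 0.0453 by limma), a run that uses the same naive 2 reading. After the normexp background correction the change was 0.78 (adjusted p = 0.99996), or 0.84 with bright local backgrounds reset (adjusted p = 0.0721), and without resistant 1 or resistant 2 the adjusted p was 0.0767 or 0.0772.

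AZU1, or azurocidin, differed least between the naive flasks among the 10 genes. Its level was −0.77 in both naive flasks and 0.40 and 0.39 in the resistant flasks. The flasks of either line could hardly be told apart and the lines did not overlap. AZU1 rose 2.24-fold (1.17 on the log2 scale, standard error 0.21, adjusted p = 0.0472 by limma), from −0.77 ± 0.0013 to 0.39 ± 0.0033 (SD, n = 2 each). The call lay close to the threshold and was lost in 7 of 17 alternatives with the direction kept, among them a fit over probes well above background on all 4 arrays (adjusted p = 0.057) and the fits without resistant 1 (adjusted p = 0.427) and resistant 2 (adjusted p = 0.484).

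PRTN3, or proteinase 3, lies between them on the chromosome. Its probe (chr19:847827-847886, hg19, plus strand) read 3.16 and 0.80 in the naive flasks and 4.43 and 4.32 in the resistant flasks. The resistant flasks were close to each other and above both naive flasks, but the naive flasks were themselves 5.11-fold apart. The log2 change of 2.39, or 5.26-fold, had a standard error of 0.76 and was not called (adjusted p = 0.179, unadjusted p = 0.023 by limma). The resistant mean was above naive 1 by 1.22 and above naive 2 by 3.57 on the log2 scale. PRTN3 passed the test where a naive flask was left out, with a log2 change of 3.57 without naive 1 (adjusted p = 0.000146 by limma) and 1.22 without naive 2 (adjusted p = 0.00936), the spread then coming from the resistant pair only. Over all 4 arrays it was called with scale normalization (2.58, adjusted p = 0.0303) and in no other alternative run.

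CTSG, or cathepsin G, is the protease of the group encoded on chromosome 14. Its probe (chr14:25042788-25042847, hg19, minus strand) read 5.68 and 4.89 in the naive flasks and 5.89 and 6.25 in the resistant flasks. Both resistant spots were saturated and neither naive spot was. CTSG was thus at least 1.72-fold higher in resistant cells, and the measured log2 difference of 0.78 (standard error 0.34) was not called (adjusted p = 0.302 by limma). The bound depended on the naive flask, with a log2 difference of 1.17 without naive 1 (adjusted p = 0.0204, called) and 0.39 without naive 2 (adjusted p = 0.281). It was not called without resistant 1 (0.96, adjusted p = 0.674) or resistant 2 (0.60, adjusted p = 0.99998).

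**Figure D2:**
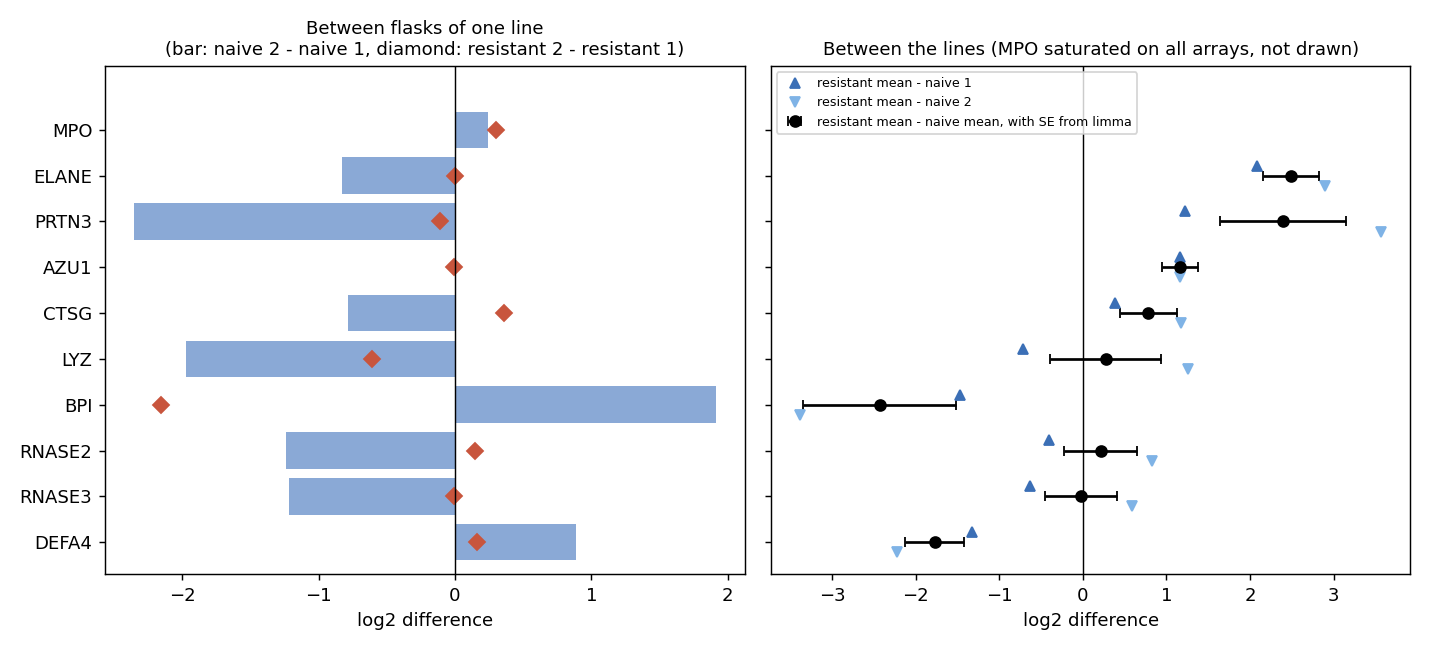
The left panel gives log2 differences between flasks of a line (bars for naive 2 minus naive 1, diamonds for resistant 2 minus resistant 1), and the right panel gives resistant minus naive log2 changes with the standard error of limma as bars and the resistant mean against each naive flask as triangles, for the brightest tested probe of each gene. The changes of LYZ, RNASE2 and RNASE3 take opposite signs against the 2 naive flasks, while those of ELANE, PRTN3, AZU1, CTSG, BPI and DEFA4 keep theirs; CTSG (saturated in resistant) and BPI (dim in resistant) are drawn at their measured values, and MPO is left out of the right panel.

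DEFA4, a defensin whose probe lies at chr8:6793365-6793424 (hg19, minus strand), was lower in the resistant flasks. Its level was 0.33 and 1.22 in the naive flasks and −1.08 and −0.92 in the resistant flasks. Both resistant flasks were below both naive flasks, by more than the naive flasks differed. The log2 change was −1.78 (standard error 0.35), with DEFA4 3.42-fold higher in naive cells, from 0.78 ± 0.63 to −0.999 ± 0.11 (SD, n = 2 each). It missed the threshold narrowly (adjusted p = 0.0583, unadjusted p = 0.00335 by limma) and was called in 7 of 17 alternatives. Among these were both fits without a naive flask, where the spread comes from the resistant pair only. Neither fit without a resistant flask called it. The log2 change was −2.22 without naive 1, −1.33 without naive 2, −1.70 without resistant 1 and −1.86 without resistant 2.

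BPI was near the limit of detection. The first BPI probe read −6.29 and −4.37 in the naive flasks, both well above background, and −6.68 and −8.84 in the resistant flasks, neither of them well above it. The bound from this probe, taken from the naive mean, was at least 2.21-fold lower in resistant cells. It rests mostly on naive 2, since naive 1 lay near the lowest levels well above background on the resistant arrays (−6.32 and −6.63). The log2 difference of the measured means, −5.33 ± 1.35 and −7.76 ± 1.53 (SD, n = 2 each), was not called (adjusted p = 0.242 by limma). That difference has no exact size, since neither resistant flask measured BPI. After normexp it was −0.023, or −0.27 with bright local backgrounds reset, both smaller than the bound. The fit without naive 1 called it (adjusted p = 0.0314) and those without naive 2 (adjusted p = 0.221), resistant 1 (0.0934) and resistant 2 (0.894) did not. The second probe (chr20:36965709-36965768, hg19, plus strand) was well above background in naive 2 alone, at −4.96, and was not tested. Both BPI probes were thus highest in naive 2.

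LYZ, or lysozyme, differed more between flasks than between lines. Its probe (chr12:69743962-69744021, hg19, plus strand) read −0.23 and −2.20 in the naive flasks and −0.64 and −1.25 in the resistant flasks. The resistant flasks lay between the naive flasks, which were 3.92-fold apart. The log2 change was 0.27 (standard error 0.67, adjusted p = 0.866 by limma), and its sign depended on the naive flask, at 1.26 without naive 1 (adjusted p = 0.0327, called) and −0.71 without naive 2 (adjusted p = 0.13). LYZ is also made by monocytes. Of the 8 monocyte and macrophage markers 6 were on the array and 5 were tested, 1 of them called higher (CX3CR1), and CD163 was not well above background on any array. The summed linear level of these markers was 3.08 and 3.49 times the 75th percentile in the naive flasks and 7.49 and 8.53 in the resistant flasks. Most of this sum came from CSF1R, which read 1.47 and 1.68 in naive and 2.70 and 2.90 in resistant flasks. CSF1R was not called (adjusted p = 0.0519 by limma). S100A12 was also higher in the resistant line, and CD14 and VCAN were lower, without calls. The part of these markers in the value of LYZ was not tested.

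The ribonucleases were also split by the naive flasks. By its first probe RNASE2 read 2.93 and 1.69 in the naive flasks and 2.45 and 2.59 in the resistant flasks. RNASE3, whose probe shares 2 listed transcripts with the second RNASE2 probe, read 1.04 and −0.18 in the naive flasks and 0.41 and 0.41 in the resistant flasks. For both genes naive 1 was highest, naive 2 was lowest and the resistant flasks lay between, close to each other. Neither was called by limma, with log2 changes of 0.21 for RNASE2 (standard error 0.44, adjusted p = 0.837) and −0.023 for RNASE3 (standard error 0.43, adjusted p = 0.985), and the sign of RNASE3 turned to 0.10 with scale normalization. The resistant mean lay above naive 2 and below naive 1, by log2 differences of 0.83 and −0.40 for RNASE2 and of 0.58 and −0.63 for RNASE3. The second RNASE2 probe read 2.42 and 1.33 in naive and 1.89 and 2.13 in resistant flasks, with a log2 change of 0.14 (adjusted p = 0.89), in the same order of lines as the first.

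RNASE2 and RNASE3 are granule proteins of eosinophils as well, so the eosinophil and basophil markers are given beside them. Of 12 markers on the array 10 were tested, with PRG3 called higher in resistant cells by 4.66 on the log2 scale and HDC called lower by a log2 change of −3.37. The fit also called CLC and IL5RA higher, 3 in all, but neither was well above background in a naive flask, and their bounds of at least 1.1-fold and 1.85-fold lie under 2-fold. FCER1A and ALOX15 were not well above background on any array, and PRG2, the major basic protein, was bright in every flask, between 5.44 and 5.86, without being called (adjusted p = 0.698). The summed linear level of the list was 73.1 and 63.3 times the 75th percentile in naive and 46.7 and 47.9 in resistant flasks. PRG2, saturated on 1 array, and in the naive flasks HDC made up most of this sum. The part of these markers in the ribonuclease values was not tested.

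The azurophil genes also differed between the naive flasks. The median of naive 2 minus naive 1 over the 10 genes was −0.81 on the log2 scale, or −0.83 without MPO, where the median over all tested probes was 0.054. The median without MPO is the value of ELANE, which naive 2 did not read well above background. After normexp with bright local backgrounds reset, the median over the 10 genes was −0.41. At least 2-fold apart between the naive flasks were 5 of the 10 genes, where 13.2% of tested probes were. PRTN3, LYZ, RNASE2 and RNASE3 were higher in naive 1, by 5.11-fold, 3.92-fold, 2.36-fold and 2.32-fold, and BPI was higher in naive 2 by 3.77-fold. A larger difference than that of PRTN3 was seen for 0.892% of tested probes, and for LYZ the share was 1.91%. AZU1 stood at the other end, with 99.8% of tested probes more different between the naive flasks. DEFA4, like BPI, was higher in naive 2, by 1.85-fold, where PRTN3, LYZ and both ribonucleases were lower.

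Between the resistant flasks the median difference was −0.0014 on the log2 scale, and only BPI, which was dim there, was at least 2-fold apart. A difference between flasks has no test, as each flask was read by a single array. An exact two-sided permutation test over 2 and 2 flasks cannot go below p = 0.333, and the calls above use the variance that limma shares among probes.

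Genes around the granule were read from the same fit, which called 5.27% of all tested probes. At that share a short list may hold no call. Of 18 other azurophil granule proteins 17 were on the array and 16 were tested, and none was called in either direction by limma, with a median log2 change of 0.17. CD63, a membrane protein of the granule, read 5.90 and 5.68 in naive and 5.65 and 5.83 in resistant flasks (log2 change −0.048, adjusted p = 0.936). DEFA3, a defensin whose transcript is nearly identical to that of DEFA1, read 4.46 and 5.79 in naive and 5.89 and 6.17 in resistant flasks, where it was saturated. Its resistant mean was at least 1.88-fold above its naive mean, without a call (adjusted p = 0.373 by limma). The naive flasks of DEFA3 differed by 1.33 on the log2 scale, and naive 2 lay close to resistant 1. The DEFA1 probe read −8.68 and −6.57 in naive and −5.60 and −6.54 in resistant flasks. That probe was well above background on 1 array and was not tested.

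Of 12 genes that process or pack the granule proteases, none was called among 12 tested, where 5.27% of all tested probes were. Their median log2 change was 0.095. SRGN, the proteoglycan core that holds the proteases, and the chaperone HSP90B1 were saturated on all 4 arrays, so no fold is given. CTSC, which removes the activation peptide of the serine proteases, changed by 0.15 on the log2 scale (adjusted p = 0.81 by limma).

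The inhibitors of the granule proteases held calls in both directions. Of 12 genes 10 were tested, 1 was called higher and 1 lower, and the median log2 change was −0.33. SLPI, the secretory inhibitor of elastase and cathepsin G, read 0.89 and −0.51 in naive and 3.15 and 3.46 in resistant flasks. SLPI rose 8.68-fold (log2 change 3.12, standard error 0.49, adjusted p = 0.0295 by limma), and its other probe was called too. SERPINA1, or alpha-1 antitrypsin, the main plasma inhibitor of elastase, read −1.84 and −1.86 in naive and −3.50 and −3.90 in resistant flasks. SERPINA1 fell by 1.85 on the log2 scale (standard error 0.25, adjusted p = 0.017 by limma).

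Among 18 transcription factors of promyelocytes, all tested, none was called higher and 2 were called lower, with a median log2 change of −0.044. GATA2, a factor of early progenitors, fell by 1.52 on the log2 scale (adjusted p = 0.0328 by limma), and EGR1, an immediate early factor, fell by 2.75 (adjusted p = 0.0425). EGR1 itself differed by 1.42 between the naive flasks, at 1.51 and 2.93.

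Of 24 paralogs and chromosomal neighbours of the members 16 were tested, and 3 were called higher and none lower, with a median log2 change of −0.0039. EPX, the eosinophil peroxidase and sister of MPO, read −2.86 and −3.35 in naive and −0.97 and −1.36 in resistant flasks and rose 3.83-fold (adjusted p = 0.0245 by limma). RNASE6, a relative of RNASE2 and RNASE3, rose 4.53-fold (adjusted p = 0.0172), from −5.14 and −5.79 to −3.29 and −3.28. GZMH, a granzyme gene near CTSG, rose 4.01-fold (adjusted p = 0.00978), from −5.87 and −5.93 to −4.01 and −3.78. In these 3 paralogs, named because they were called, the lines did not overlap. Both resistant arrays lay above both naive arrays for 24.5% of all tested probes.

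The secondary and gelatinase granules are formed after the promyelocyte stage, and their genes serve as the nearest comparison. Of 20 genes 9 were not well above background on any array, LTF and LCN2 among them, whereas each of the 10 azurophil genes was well above background on at least 2 arrays. BPI was so in the naive flasks only, and ELANE was dim in every flask and not so in naive 2. Of the 11 secondary and gelatinase granule genes tested, 3 were called higher (CHI3L1 by 3.74, HP by 3.61 and CAMP by 2.05 on the log2 scale). Another 2 were called lower (FCN1 by −2.55 and MMP9 by −2.01), and the median log2 change of the 11 was 0.12. The difference between this list and the azurophil genes was not tested.

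**Figure D3:**
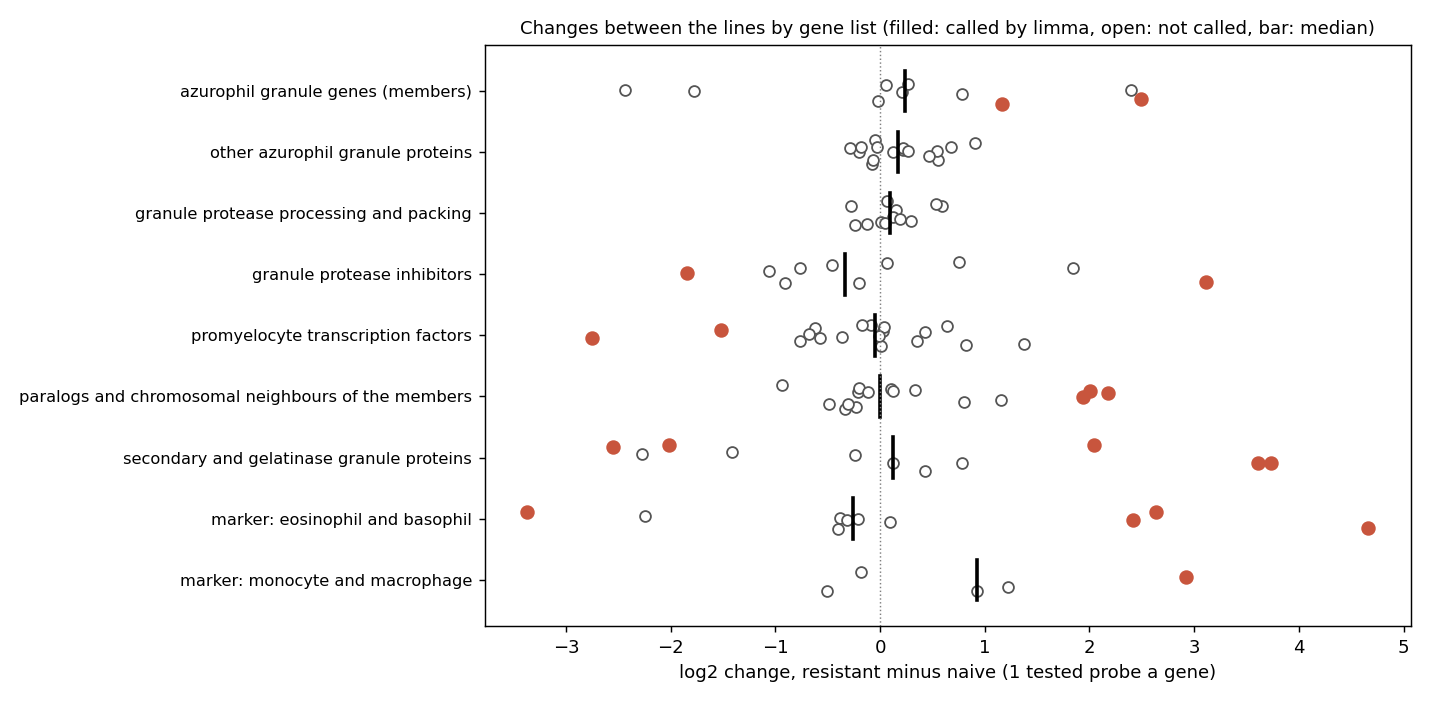
Each point is the log2 change, resistant minus naive, of the brightest tested probe of 1 gene, in rows by gene list, filled where limma called it; black bars are medians, and saturated or dim genes are drawn at their measured values, among them BPI and ELANE at the ends of the azurophil row, whose sizes rest on dim readings. The median of the azurophil genes was 0.24. The 16 other azurophil proteins and the 12 processing genes hold no called point, where 5.27% of all tested probes were called.

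The labelled cell type was checked against 8 promyelocyte and myeloid markers, all of which were well above background on at least 1 array. CD33 read 2.84 and 3.16 in naive and 2.63 and 2.80 in resistant flasks and was not called (adjusted p = 0.564 by limma). Of 7 tested, ITGAM was called higher by 2.01 and ANPEP and CD9 lower by −1.83 and −1.70 on the log2 scale. HBB, HBG1 and PPBP of the erythroid and megakaryocyte markers and MS4A1 of the lymphoid markers were not well above background on any array. Over the 10 erythroid and megakaryocyte markers 6 were tested and 1 was called, ITGA2B, lower by a log2 change of −2.40. Of 7 lymphoid markers on the array 6 were tested, and CD3D was called lower, at least 169-fold, being not well above background in resistant cells.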

How the data were processed

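Per the labels and methods, RNA of 2 flasks per line was hybridized by the authors, who read the images with Agilent Feature Extraction 10.5.1.1. Their deposited scanner files give the processed signal of each spot, an intensity on a linear scale with the background subtracted, and the mean signal and local background, also deposited as intensity. A log2 table, deposited too, was made by the authors with the GeneSpring GX software, which shifted every array by its 75th percentile.

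Control and outlier spots were left out, spots averaged per probe, log2 taken and each array's 75th percentile subtracted in R 4.3.3 (Pearson's r with the deposited log2 table at least 0.9998 per array, across probes). The fit used limma 3.58.1 (lmFit, eBayes) and was tested on simulated data. A gene is counted by its brightest tested probe. A line in which a probe was saturated or not well above background throughout gives a bound on the fold. In the dim case each array counts with its lowest signal well above background, or with the probe's signal if that is higher. Summed levels add linear levels of the brightest probes. RefSeq accessions gave current symbols for 26222 probes and added 0 members, and 4 member probes have no position in the files. Probe positions are in hg19 per the file headers. The members and gene lists were chosen with earlier results of these data known. Named are all members, each list's called genes (up to 6, or the brightest 2 where none was called) and absent defining markers, and CTSC, CD33 and PRG2 were chosen after their values were seen. Precision is limited by the number of arrays, 4. Alternatives covered background correction, normalization, filters, variance model, test, deposited table, replicate block, leaving out flasks and averaging probes.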

Additional observations from a re-analysis of the deposited data

How the results depend on the processing

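Of 167 values of single genes under 18 alternatives, 131 kept direction and side of the threshold, 13 lost a call, 13 gained one and 10 changed sign. The 131 include values of genes that were not called and stayed so. Neither ELANE nor AZU1 changed sign, but ELANE lost its call in 6 of 16 alternatives and AZU1 in 7 of 17. The number of probes called by limma was 1487, and it was 0 after normexp (929 at an unadjusted p below 0.05), 760 over probes well above background on all 4 arrays, 0 with the methods' t-test (4138 unadjusted) and 728 to 4536 with a flask left out (3733 without naive 1, 4536 without naive 2, 743 without resistant 1 and 728 without resistant 2). Of the azurophil genes 2 were called, against 0 after normexp (3 unadjusted), 1 with quantile normalization, 4 with scale normalization, 1 with no filter on dim probes, 0 of 8 over probes well above background on all arrays (3 unadjusted), 0 with the t-test (2 unadjusted) and 0 to 7 with a flask left out. These were 7 without naive 1, 4 without naive 2, and 0 without resistant 1 (5 unadjusted) and without resistant 2 (4 unadjusted). With a flask left out, its line is assumed to vary like the other. The median log2 change of 0.24 ranged from −0.11 to 1.00 with a flask left out, the highest without naive 1. The difference between the naive flasks stayed between −0.41 and −0.96.

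MPO, saturated throughout, changed sign to −0.018 after normexp and −0.046 with quantile normalization and ranged from −0.095 to 0.21 with a flask left out. RNASE3 changed sign to 0.10 with scale normalization and 0.022 with a shift to the median, and ranged from −0.63 to 0.58 with a flask left out. LYZ ranged from −0.71 to 1.26 and RNASE2 from −0.40 to 0.83. ELANE lost its call after normexp, with and without reset backgrounds, with quantile normalization, with the t-test and without either resistant flask. AZU1 lost it after normexp, under both other filters, with the t-test, under the block and without either resistant flask. The causes were not tested. The median of all probes moved by 0.15 with normexp and by 0.10 with scale normalization.

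The replicate numbers do not pair the flasks by label (correlation of same-numbered deviations 0.119). With the replicate number as a block, 1375 probes and 2 azurophil genes were called, ELANE and DEFA4 (adjusted p = 0.0456), while AZU1 was not (adjusted p = 0.0832). The slide could not be a block, as there was 1 slide.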
